A study of Mus musculus with 32 samples.

Results

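The Fkbp5 locus is given here as the 200-kb stretch chr17:28500000-28700000 of the mouse genome (build mm9), and its members are the intervals of the deposited lists whose centre lies in it. There were 79 such intervals among 180039 in all 5 lists. They comprised 19 of 11666 peaks of the glucocorticoid receptor (GR), 14 of 25392 C/EBPβ peaks after dexamethasone, 6 of 22714 C/EBPβ peaks after vehicle, 27 of 63473 DNase I hypersensitive sites (DHS) found with dexamethasone, and 13 of 56794 DHS found with vehicle. The locus was selected on the counts of these same lists (GR peaks, and DHS and C/EBPβ peaks present after dexamethasone only), so its values are a description and carry no test. Livers came from adrenalectomized male C57BL/6 mice aged 8 weeks. The animals were injected either with dexamethasone, a synthetic GR ligand, at 1 mg/kg as a cyclodextrin complex in 300 ul of saline, or with cyclodextrin vehicle, and the design text gives the time as 1 h. Adrenalectomy, common to both treatments, takes away most endogenous glucocorticoid. DNase-seq, which finds accessible chromatin, and ChIP-seq for C/EBPβ had 2 samples per treatment, as did ChIP-seq for GR, but each list is a single set of positions with no height, count or replicate column. The GR list names no treatment. Read depth is therefore unknown, and an interval found in 1 list only may have missed an unstated threshold in the other.

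Fkbp5 encodes FKBP51, a prolyl isomerase that joins the HSP90 chaperone complex of unliganded GR and lowers the receptor's affinity for hormone. Glucocorticoids induce the gene in many tissues, so that its product forms a short negative feedback loop on GR, and GR binding far from the promoter is a known feature of its regulation. GR bound to hormone recognises paired half-sites in DNA, while C/EBPβ is a leucine zipper factor that binds many hepatocyte enhancers. In RefSeq's GRCm38.p6 gene order by start position, Fkbp5 follows Tulp1 and precedes the long non-coding RNA genes Gm22146 and then E230001N04Rik. Armc12 is the next protein-coding gene on that side. The lists use mm9, and no gene positions of that build were used here, so the intervals below are given by position and not as intronic, exonic or promoter.

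The promoter of Fkbp5 is shown as the start region of the gene that names the locus. Whether any interval of the lists covers it was not examined, for want of a common build. The 300 bases run from 250 before to 50 after the start on the minus strand, at chr17:28486100-28486399 of GRCm38.p6, a build whose numbers cannot be set against the mm9 positions in the rest of the text. Capitals mark GC boxes (GGGCGG on either strand) and CCAAT boxes (CCAAT on either strand), of which a GC box and a reversed CCAAT box adjoin.
Fkbp5 promoter: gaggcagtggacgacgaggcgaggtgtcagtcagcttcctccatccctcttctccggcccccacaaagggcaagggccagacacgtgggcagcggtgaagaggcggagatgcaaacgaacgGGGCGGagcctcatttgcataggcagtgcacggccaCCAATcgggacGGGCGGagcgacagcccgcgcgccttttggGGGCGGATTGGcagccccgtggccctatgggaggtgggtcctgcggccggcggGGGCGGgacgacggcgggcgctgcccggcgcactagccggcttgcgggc
The stretch held 4 GC boxes and 2 CCAAT boxes, motifs that occur in 35.7% and 37.4% of the 32851 promoters of the same length. It held 0 matches to a GR element (ACANNNTGT, its own reverse complement), which 6.85% of promoters have, and 0 to a C/EBP motif (TTGCNNAA, searched on both strands), which 10.8% have. Its GC content was 70.7%, against a median of 52.7% over all promoters. These counts say which letters stand in this window and nothing about binding, and the sequences of the GR peaks themselves were not used here.

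GR occupied the locus in 2 separate groups of sites. Numbered by position, GR peaks 1 to 10 lay in the 40.9 kb from 28544577 to 28585492, and GR peaks 11 to 19 lay in the 24.9 kb from 28635262 to 28660207. Between them, 49.8 kb held no GR peak, although it held 6 dexamethasone DHS, of which 4 were absent from the vehicle list. Each GR interval was 150 bp wide. Neighbouring GR centres were a median of 2291 bp apart in the locus, against 29234.5 bp for all GR peaks. The closest neighbours, GR peaks 13 and 14, were 457 bp apart.

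**Figure D1:**
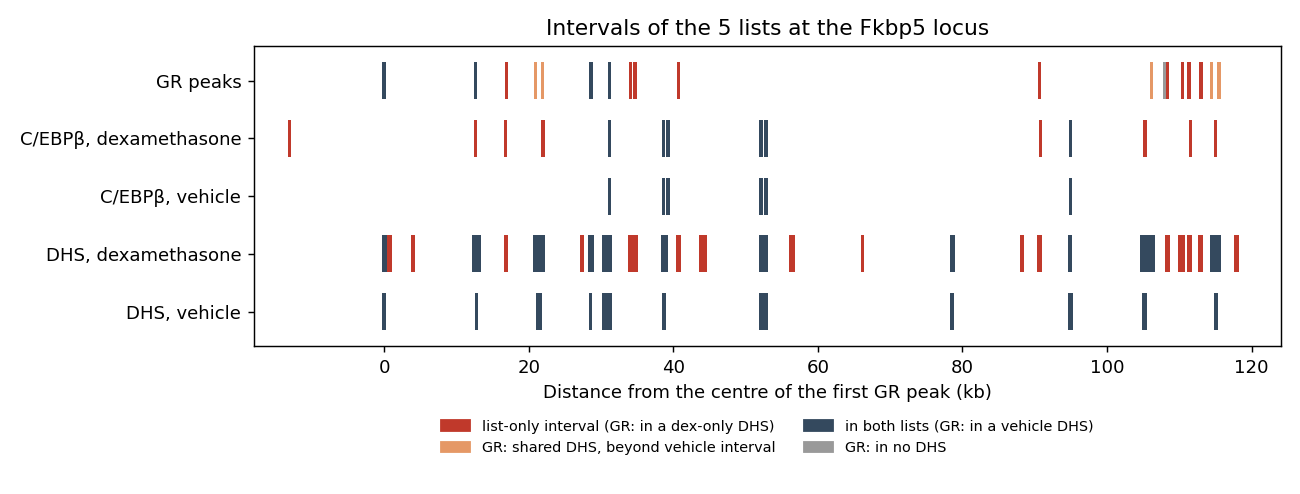
Position of every interval of the 5 lists, in kb from the centre of the first GR peak, drawn with a minimum width so that each can be seen. The dexamethasone rows hold 16 DHS and 8 C/EBPβ peaks that are missing from the vehicle rows (red), and the GR peaks form 2 groups on either side of a stretch of 49.8 kb.

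Most GR peaks of the locus lay where the vehicle list had no accessible site. Of the 19, 4 overlapped a vehicle DHS by at least 1 bp (21.1%, 95% Wilson interval 8.51 to 43.3), against 79.2% of all GR peaks. A further 9 (47.4%, 27.3 to 68.3) lay in a DHS of the dexamethasone list that overlapped none of the vehicle list (a dex-only DHS), against 15.6% of all GR peaks. Another 5 (26.3%, 11.8 to 48.8) lay in a DHS common to both lists but beyond its vehicle interval, against 1.98%, and 1 lay in no DHS, against 3.26%. The locus thus had 15 of 19 GR peaks outside vehicle DHS (78.9%, 56.7 to 91.5) where the whole list had 20.8%. It resembled the whole list in how many GR peaks lay in a dexamethasone DHS, with 18 of 19 (94.7%) against 96.6%. These intervals cover counting error only, and the locus was picked for this pattern. They take GR peaks as independent, though GR peaks 4 and 5, 8 and 9, and 18 and 19 each shared a dexamethasone DHS.

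**Figure D2:**
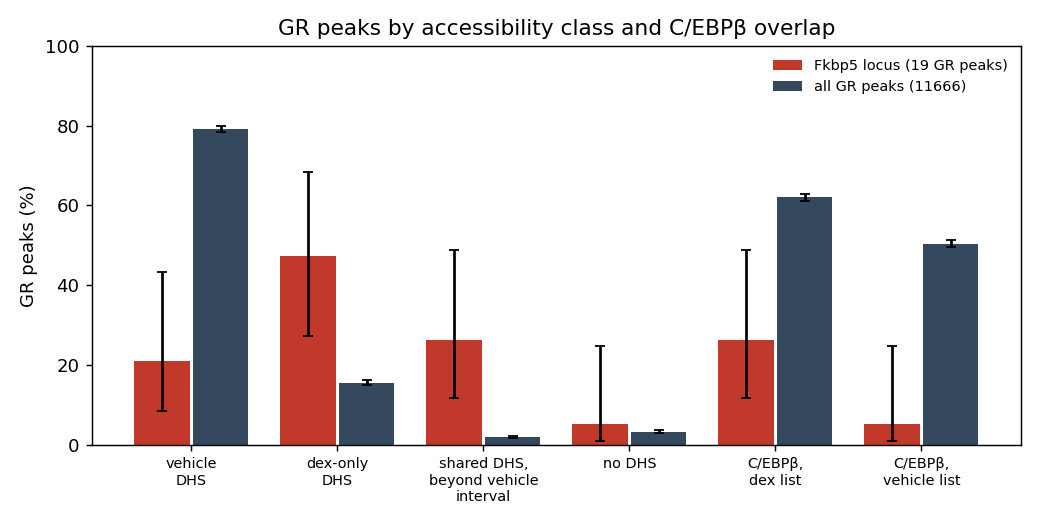
Percentage of GR peaks in each accessibility class and with a C/EBPβ peak of either list, at the Fkbp5 locus (red, 19 peaks) and over the whole GR list (blue, all 11666 peaks), with 95% Wilson intervals as error bars. The locus bar is the lower one for vehicle DHS (21.1% against 79.2%) and for both C/EBPβ lists, and the higher one for dex-only DHS (47.4% against 15.6%).

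The GR peaks in dex-only DHS were spread over both groups. In the first group these were GR peak 3 (28561461 to 28561611), GR peaks 8 and 9 (28578647 to 28578797 and 28579291 to 28579441), which shared a single DHS of 1345 bp, and GR peak 10 (28585342 to 28585492). In the second group they were GR peak 11 (28635262 to 28635412), GR peak 14 (28652968 to 28653118), GR peak 15 (28655007 to 28655157), GR peak 16 (28655919 to 28656069) and GR peak 17 (28657580 to 28657730). Each was well separated from vehicle accessible chromatin. The nearest vehicle DHS was between 1684 bp (GR peak 10) and 4265 bp (GR peak 15) away. GR peaks 14 to 17 each had a DHS of their own within a run of 4 consecutive dex-only DHS from 28652695 to 28657996.

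The vehicle-accessible GR peaks were all in the first group, and the second group had 0 of 9. GR peak 1 (28544577 to 28544727) and GR peak 7 (28575735 to 28575885) lay wholly inside a vehicle DHS. GR peak 2 (28557200 to 28557350) overlapped its vehicle DHS by 145 of its bases, and GR peak 6 (28573192 to 28573342) overlapped a vehicle DHS of only 172 bp by 80 bases. GR peak 13 (28652511 to 28652661) was the one in no DHS, and it ended 34 bp short of the dex-only DHS that held GR peak 14.

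The other 5 GR peaks lay in flanks of vehicle-accessible sites, within the wider interval of the dexamethasone list. GR peaks 4 and 5 (28565510 to 28565660 and 28566485 to 28566635) sat on opposite sides of a pair of overlapping vehicle DHS, 55 and 74 bp beyond them. Those covered 696 bp together, where the dexamethasone list had a single DHS of 1671 bp. GR peaks 18 and 19 (28658995 to 28659145 and 28660057 to 28660207) likewise lay 277 and 111 bp beyond the opposite ends of a vehicle DHS of 524 bp, inside a dexamethasone DHS of 1553 bp. GR peak 12 (28650748 to 28650898) lay 586 bp beyond a vehicle DHS of 701 bp, in a dexamethasone DHS of 2027 bp, the widest of the locus. Several GR peaks in 1 accessible site were thus recurrent, with 3 of the 15 dexamethasone DHS that held any GR peak holding 2, against 6.16% with 2 or more genome-wide.

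Of the 11 dexamethasone DHS that had a counterpart in the vehicle list, 7 held a GR peak (63.6%), against 18.2% of shared DHS genome-wide. Width could be compared one to one at 9 of the 11, and 8 of the 9 were wider in the dexamethasone list, against 51.1% of matched DHS genome-wide. It differed most at 4 sites with GR. The DHS of GR peak 6 was 746 bp wide after dexamethasone and 172 bp after vehicle, a log2 ratio of 2.12 that exceeded 99.97% of the 44381 DHS matched one to one over all chromosomes. The 172 bp is close to the smallest width of the vehicle list, 150 bp, so this ratio depends strongly on how that short interval was called. The DHS of GR peaks 18 and 19 had a log2 ratio of 1.57, that of GR peak 12 a log2 ratio of 1.53, and that of GR peak 2 a log2 ratio of 1.14 (1111 bp after dexamethasone and 503 bp after vehicle). In that order, they exceeded 99.8%, 99.8% and 99.2% of matched DHS.

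By their median, the matched sites without GR had more similar widths in the lists, but the ratios of the 2 kinds of site overlapped. A matched site counted as with GR when its interval in either list held a GR peak. A wider dexamethasone interval could thus bring a GR peak in by its width alone. GR peaks 12, 18 and 19 lay only in the dexamethasone interval of their site. The contrast in width is therefore partly set by this definition, here and over all chromosomes. Over the 6 matched DHS with GR, the median log2 ratio of width was 1.34, and all 6 were wider after dexamethasone. Over the 3 without GR it was 0.18, with 2 wider. The largest of these 3 was 0.49 (28583023 to 28583858, 835 bp after dexamethasone and 595 bp after vehicle), above 92.0% of matched DHS. That exceeded the ratios of 0.27 and 0.03 at the DHS of GR peak 1 and GR peak 7. Over all chromosomes the medians were 0.12 (8114 DHS with GR, of which 70.8% were wider after dexamethasone) and -0.02 (36267 without GR, 46.7% wider). At 1 matched site with GR the widths were nearly equal. The DHS of GR peak 7, which also held C/EBPβ in both lists, was 1411 bp wide after dexamethasone and 1384 bp after vehicle. A GR-free DHS with C/EBPβ in both lists (28639240 to 28639856) measured 616 bp after dexamethasone and 654 bp after vehicle, the only matched site that was narrower. A dexamethasone DHS of 1305 bp, of which a pair of vehicle DHS covered 1259 bp, also held C/EBPβ in both lists and no GR.

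**Figure D3:**
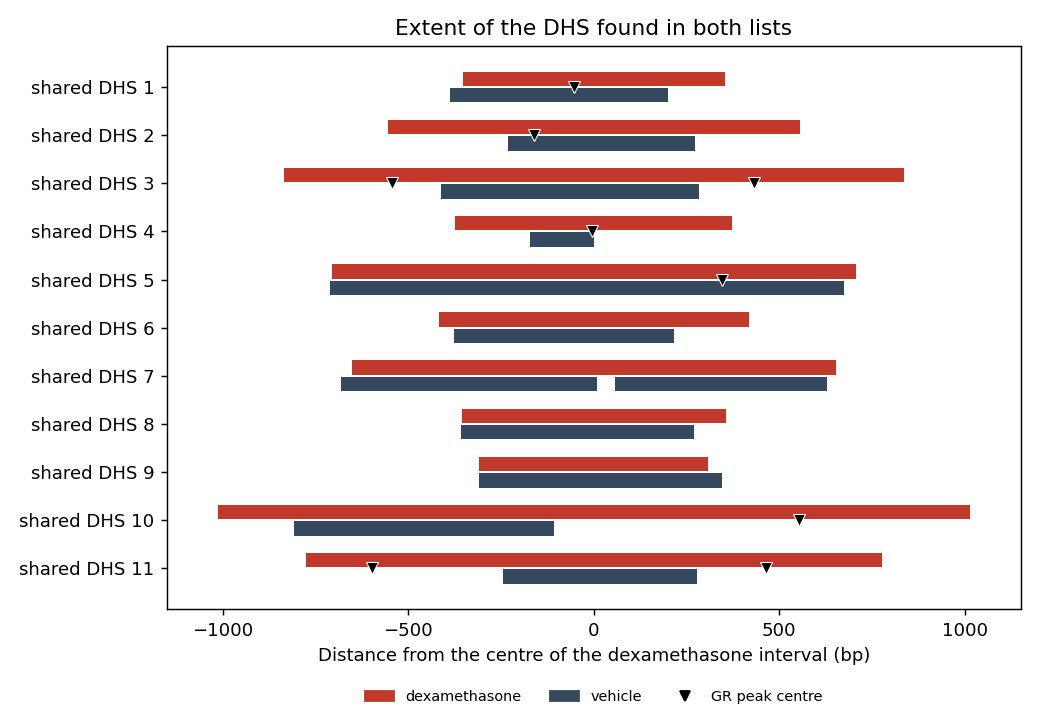
Extent in bp of the 11 DHS found in both lists, from first to last along the locus, around the centre of the dexamethasone interval (red, upper bar of each pair, with the vehicle interval in blue below it). Triangles are GR peak centres, and shared DHS 3, 10 and 11 carry GR peaks outside the blue bars. Shared DHS 7 to 9 have no GR peak and similar extents. The DHS just before them, also without GR, is wider in the dexamethasone list (835 against 595 bp).

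The dexamethasone list had many accessible sites at the locus that the vehicle list lacked, and the vehicle list had none of its own. Of its 27 dexamethasone DHS, 16 were absent from the vehicle list (59.3%, 40.7 to 75.5), against 23.8% of all dexamethasone DHS. Of its 13 vehicle DHS, 0 were absent from the dexamethasone list (0 to 22.8%), against 14.9% of all vehicle DHS, a share inside that interval. Only 4849 of the 12356 autosome windows of 200 kb held any vehicle DHS absent from the dexamethasone list. The DHS covered 24362 bp after dexamethasone and 7705 bp after vehicle, a ratio of 3.16, while over the autosomes the ratio was 1.11. Both the number and the width entered this ratio, since the mean covered length per DHS was 902 bp after dexamethasone and 593 bp after vehicle in the locus, against 651 and 652 bp over the autosomes. How the lists were called is not given, and these lengths also move with how much was called in each.

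A GR peak lay in 8 of the 16 dex-only DHS, against 11.9% of dex-only DHS genome-wide. Of these 8, 3 also held a dexamethasone C/EBPβ peak, against 29.8% genome-wide. The 8 with GR had a median width of 730 bp and the 8 without GR 612.5 bp, both above the medians over all chromosomes (618 and 461 bp). Of those without GR, 2 lay within 1 kb of a GR peak. The DHS at 28545077 to 28545717 was 350 bp from GR peak 1, and the DHS at 28571690 to 28572276 was 916 bp from GR peak 6. The first began just after the end, at 28545060, of a shared dexamethasone DHS and lay 170 bp from a vehicle DHS. When sites within 500 bp count as overlap it is no longer dex-only, which leaves 15. Another 2, at 28548419 to 28548990 and at 28662230 to 28662869, were 3692 and 2023 bp from a GR peak. The last 4 lay in the stretch between the GR groups, at 28588264 to 28589281, 28600617 to 28601431, 28610570 to 28611050 and 28632677 to 28633153, at distances of 2772, 15125, 24212 and 2109 bp from GR. None of these 8 held a dexamethasone C/EBPβ peak (0 to 32.4%), where 8.62% of dex-only DHS without GR did genome-wide, a share inside that interval.

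The C/EBPβ lists differed in the same sense. The 14 dexamethasone C/EBPβ peaks included all 6 of the vehicle list, and 8 were absent from it, called gained here (57.1%, 32.6 to 78.6), against 20% of all dexamethasone C/EBPβ peaks. Of the 6 vehicle peaks 0 were absent after dexamethasone (0 to 39.0%), against 10.6% of all vehicle C/EBPβ peaks, a share inside that interval. The 6 shared peaks were at 28575783, 28583273, 28583833, 28596716, 28597404 and 28639498 (start positions), and 5 of them lay in a vehicle DHS, against 84.5% of shared peaks genome-wide.

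Most gained C/EBPβ peaks lay on or near a GR peak. Of the 8 gained, 4 overlapped a GR peak (21.5 to 78.5%), against 27.5% of gained peaks genome-wide, a share inside that interval. They were at 28557173 to 28557323 (GR peak 2), 28561397 to 28561547 (GR peak 3), 28566561 to 28566711 (GR peak 5) and 28635347 to 28635497 (GR peak 11). A further 3, at 28649824 to 28649974, 28656133 to 28656283 and 28659547 to 28659697, were 774, 64 and 360 bp from the nearest GR peak and inside the same dexamethasone DHS. In all, 7 of the 8 gained peaks shared a dexamethasone DHS with GR (87.5%, 52.9 to 97.8), against 32.7% of gained peaks genome-wide. GR was also common in the DHS of the locus, at 15 of 27 dexamethasone DHS (55.6%) against 16.7% genome-wide. The exception, at 28531457 to 28531607, lay in no DHS of either list and 12970 bp from the nearest GR peak. Of the 6 constant peaks, 1 overlapped a GR peak (GR peak 7), with an interval of 3.01 to 56.35%, against 28.9% of shared peaks genome-wide. It was also the only one in a DHS with GR, against 33.5% genome-wide, and both shares lie inside that interval. By accessibility, 3 of the 8 gained peaks lay in a vehicle DHS (13.7 to 69.4%), against 67.5% of all gained peaks, a share inside that interval. Another 3 lay in a dex-only DHS (13.7 to 69.4%), against 15.3%. The extended part of a shared DHS held 1 (2.24 to 47.1%), against 2.36%, and 1 lay in no DHS (2.24 to 47.1%), against 14.9%. These shares also lie inside their intervals.

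Seen from GR, C/EBPβ was sparse. A dexamethasone C/EBPβ peak overlapped 5 of the 19 GR peaks (26.3%, 11.8 to 48.8), against 62.0% of all GR peaks, and a vehicle one overlapped 1 (5.26%, 0.935 to 24.6), against 50.4%. From GR centres, the nearest C/EBPβ centre was a median of 1051 bp away in the dexamethasone list and 13013 bp away in the vehicle list, against 45 and 137 bp over all GR peaks. No C/EBPβ peak of either list lay at 14 of the 19 GR peaks (73.7%), against 37.6% of all. Among GR peaks in dex-only DHS, 2 of 9 (22.2%, 6.32 to 54.7) lay on a dexamethasone C/EBPβ peak, against 27.5% of such GR peaks genome-wide. That share lies inside the interval, which covers counting error only. The interval takes the 9 as independent, though GR peaks 8 and 9 shared a DHS. The count of 5 among all 19 GR peaks falls to 3 when the larger part of the shorter interval has to be covered.

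Set against all 200-kb windows of the autosomes, the locus ranked near the top for GR peaks and at the top for GR peaks outside vehicle DHS. The 12356 windows had a median of 0 GR peaks. Only 3 of them, the locus included, had 19 or more (0.0243%), the others starting at 167500000 on chromosome 2 (22 GR peaks) and at 90300000 on chromosome 6 (19). In those windows 2 of 22 and 5 of 19 GR peaks lay outside vehicle DHS. The locus alone reached 15 GR peaks outside vehicle DHS, and it alone reached 9 in dex-only DHS (0.00809% of windows in both cases). With 16 dex-only DHS it was joined by 1 other window (0.0162% for the pair), which started at 14900000 on chromosome 5 and held 0 GR peaks.

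By its vehicle intervals alone the locus was less extreme. At least as many vehicle DHS were found in 9.52% of windows, and at least as many vehicle C/EBPβ peaks in 10.5%. After dexamethasone these shares were 0.235% for DHS and 1.11% for C/EBPβ peaks, and at least 8 gained C/EBPβ peaks occurred in 0.0890% of windows. The neighbouring windows held fewer GR peaks. The window to the right (from 28700000) held 5 GR peaks, of which 3 were outside vehicle DHS, and the window to the left (from 28300000) held 4, of which 2 were.

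Among the 102 windows with 10 or more GR peaks, a class set after the values were seen, the median share of GR peaks outside vehicle DHS was 20%. The locus had the highest, 78.9%, and the next window, from 73900000 on chromosome 1, had 70.0% with 10 GR peaks. In the share of GR peaks in dex-only DHS, the locus had 47.4% and that window 60.0%. The ratio of dexamethasone to vehicle DHS was 2.08 at the locus, 1.8 at most in the other windows and 1.14 in the median window. The share of dexamethasone C/EBPβ peaks gained was 57.1%, behind 1 window with 57.9%.

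**Figure D4:**
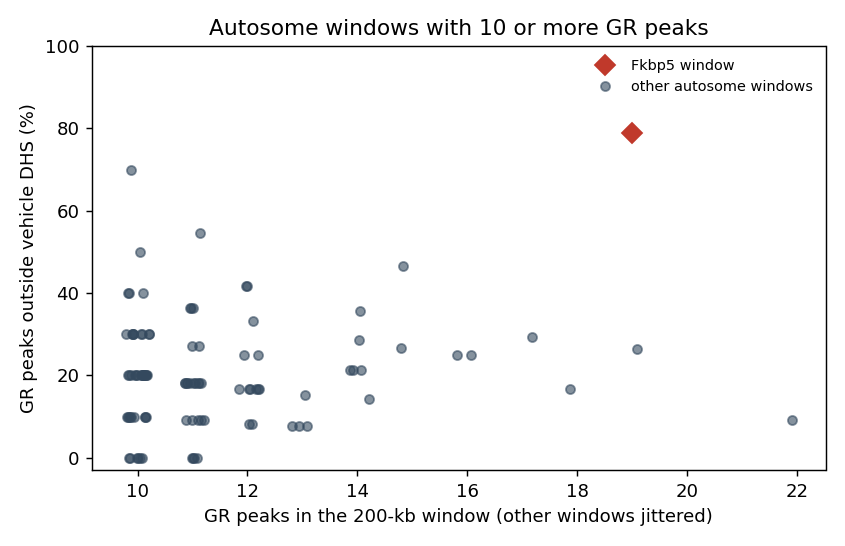
Each point is a 200-kb autosome window with 10 or more GR peaks (102 windows), with its number of GR peaks on the horizontal axis and the percentage of them outside vehicle DHS on the vertical axis. The Fkbp5 window (red diamond) stands at 19 GR peaks and 78.9%, and the other windows reach 70.0% at most.

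The windows most like the locus in the counts of the 5 lists, by the summed absolute difference of log2(count + 1), were 5. They started at 122700000 of chromosome 5 (difference 1.11), at 59300000 of chromosome 10 (difference 1.21), at 90300000 of chromosome 2 (difference 1.51), at 27500000 of chromosome 3 (difference 1.63), and at 41900000 of chromosome 10 (difference 1.77). By this choice their vehicle lists were much like that of the locus, with 6 to 10 C/EBPβ peaks and 14 to 16 DHS. They held 11 to 15 GR peaks, of which 2 to 7 lay outside vehicle DHS, and 6 to 11 dex-only DHS. Both counts had to be lower than the 15 and 16 of the locus, since no other window with a GR peak reached either.

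No GR peak lay near an edge of the window. GR peak 1 lay 44.7 kb inside the left edge and the last GR peak before it was 79.7 kb outside, while GR peak 19 lay 39.9 kb inside the right edge and the next GR peak was 19.9 kb outside. The nearest outside intervals were close on the right, where a DHS and a C/EBPβ peak of both lists lay between 2.32 and 2.36 kb beyond the edge. Inside, the last dexamethasone DHS was 37.5 kb and the last dexamethasone C/EBPβ peak 40.4 kb from that edge.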

How the data were processed

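The series holds DNase-seq and ChIP-seq of mouse liver in 32 samples, and the 5 interval lists used here come from dexamethasone and vehicle livers. The authors' deposited values are positions only (chromosome, start, end and an identifier), with 0 columns of per-sample values. Per the submitters' processing notes, CASAVA 1.8 and mm9 were used. How reads were aligned and peaks called, with which threshold and on single or pooled samples, is not given in the sources at hand, nor is the base of the positions. Intervals count as half-open here, and their positions are those of the files. The dexamethasone DHS list has 3 duplicate rows, none in the locus, which were kept. Gained C/EBPβ peaks are identifiers absent from the vehicle list. The locus, the lists and the comparisons were chosen with earlier results of these data known, so no test was run.

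Overlap meant at least 1 bp. Windows of 200 kb started at odd multiples of 100 kb, so that the locus is a window. Every GR peak and every DHS or C/EBPβ peak found in 1 list only was named, as were the 5 most similar windows and the edges. Overlap counts equalled those of bedtools 2.31.1, and 4000 simulated GR peaks of known class came back as planted. Motif content of GR peaks and the genes of the chaperone cycle were planned but not examined, since no mm9 sequence or annotation was used here. The adenovirus, polymerase II and input samples were not analysed here. Alternatives changed the overlap rule, the DHS used, and the window and its grid. The tools were pandas 2.3.3, numpy 2.4.6 and scipy 1.17.1 in Python 3.11.15, with matplotlib 3.10.9 for figures.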

Additional observations from a re-analysis of the deposited data

How the results depend on the processing

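Of 81 recomputed values, 57 stayed within 1.5 times the reported count (or within its interval) and 24 did not. This tally does not measure robustness, because some outcomes were fixed by their setting. Keeping only windows with a GR peak, for example, cannot change how many reach the GR count of the locus. The 50-kb grid and chromosome 17 alone change the number of windows, and the counts with it. Counting a site within 500 bp as overlap put 8 GR peaks in vehicle DHS, 1 in a shared DHS beyond it and 0 in no DHS. GR peaks 4, 5, 18 and 19 lie in the flanks of shared DHS and account for the first 2 counts, and GR peak 13, 34 bp from a dex-only DHS, for the third. Requiring the larger part of the shorter interval left 3 GR peaks on dexamethasone C/EBPβ. Narrowing the window by 50 kb on each side left 10 GR peaks and 17 dexamethasone DHS, and widening it by 100 kb gave 10 vehicle C/EBPβ peaks and 22 vehicle DHS. With both DHS lists limited to intervals above their own median width, 17 of 22 dexamethasone DHS (77.3%) had no counterpart left among 5 vehicle DHS. A site whose vehicle interval is narrower than the limit counts as absent there: against the whole vehicle list, added after seeing the data, 11 of the 22 were absent.

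Windows starting every 50 kb (49430 that do not overlap the locus) included more with at least as many intervals as the locus, since there are more windows: 8 for GR peaks, 535 and 5131 for dexamethasone and vehicle C/EBPβ, 106 and 4628 for dexamethasone and vehicle DHS, 3 for dex-only DHS and 39 for gained C/EBPβ. On chromosome 17 alone these numbers were 0, 3, 49, 1, 53, 0 and 0. For dex-only DHS, the number was 0 among windows with a GR peak. No other window reached the 9 GR peaks in dex-only DHS or the 15 outside vehicle DHS, on the main or the 50-kb grid. The sets of chromosome 17 and of windows with a GR peak are parts of the main grid, so they could not change this. With the limit for GR-dense windows at 8 or at 15 GR peaks, added after seeing the data, the highest other share outside vehicle DHS was 75.0% or 46.7%. No paired analysis was possible because each treatment has 1 list per assay. With no read counts, a site near a caller's threshold cannot be told from one well above it.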
